A study of Mus musculus with 12 samples.

Results

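ISG15 is a small ubiquitin-like protein that is induced by type I interferon and joined to other proteins by its own enzyme cascade, in the manner of ubiquitin. An activating enzyme (E1) charges it, a conjugating enzyme (E2) carries it, a ligase (E3) places it on a target protein, and a protease takes it off again. Free ISG15 can also be secreted, and the genes of the whole cascade are known as interferon-stimulated genes in dendritic cells and many other cells.

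The 6 genes described here were Isg15 itself, its E1 Uba7, its E2 Ube2l6, the ligases Herc6 and Trim25, and the ISG15-specific protease Usp18. They were taken by name from a table of 55401 genes, in all 12 libraries, and all 6 were among the 14079 genes that passed the filter on low counts. The RNA came from Sp37A3, an immature dendritic cell line derived from mouse spleen and grown with GM-CSF and M-CSF. CtrV cells had received the empty lentiviral vector. EKO cells had received the vector with a CRISPR/Cas9 guide against Siglece, the gene of the inhibitory sialic acid receptor Siglec-E, and were a pool of sorted clones. Both lines were studied with ovalbumin pulsing (OVA-pulsed) or without it (unpulsed), with 3 libraries in each of the 4 groups. All 4 groups were stimulated with LPS and left for 24 h, so there were no resting cells. Nothing in the labels says that replicates were separate cultures, so p-values measure the spread between these libraries, which may be technical.

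Library totals lay between 27116201 and 39698572 counts. Of the dendritic cell markers, 10 of 12 were above 1 CPM, the library-normalized count scale used throughout, in at least 6 libraries. Clec9a, a marker of cross-presenting dendritic cells, was below 1 CPM in every library. With OVA, Batf3, Irf8, Flt3, H2-Aa and H2-Ab1 were higher in EKO cells (log2 fold changes of 1.67, 1.35, 1.74, 0.49 and 0.52). Itgax was lower (-0.27), and Zbtb46, Cd74, Irf4 and Sirpa were not called. Xcr1 was low, with means of 0.36 CPM in CtrV and 1.02 CPM in EKO cells. The part of these markers in the results was not tested. Siglece, the targeted gene, had 150.2 to 163.4 CPM in CtrV libraries and 166.0 to 235.2 CPM in EKO libraries. Its mRNA was therefore higher, not lower, in the libraries labelled EKO (log2 fold changes of 0.31 with OVA and 0.41 without, both called). The line names below follow the labels. The paper reports little or no Siglec-E on the pooled clones, and mRNA counts do not measure the protein. The 4 macrophage markers summed to 1256 to 1431 CPM in CtrV libraries and 1599 to 1717 CPM in EKO libraries, and their part in the results was not tested. Of these, Csf1r and Fcgr1 were higher in EKO cells with OVA (log2 fold changes of 0.55 and 1.13), while Adgre1 (-0.03) and Mertk (-0.32) were not called. Defining markers of T cells, B cells, NK cells, neutrophils, fibroblasts and plasmacytoid dendritic cells were all below 1 CPM in every library. Of the epithelial markers, Krt18 was below 1 CPM throughout, and Epcam had 20.8 to 27.2 CPM in CtrV and 25.2 to 33.0 CPM in EKO libraries (log2 fold change 0.31 with OVA, adjusted p = 0.051), with its part in the results not tested.

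All 6 genes were higher in EKO cells than in CtrV cells, with and without OVA. The modifier rose most, the E2, Herc6 and the protease followed, the E1 rose less, and Trim25 rose least. In OVA-pulsed cells 6 of 6 genes were called higher, against 25.1% of all tested genes called higher and 21.9% called lower (edgeR's quasi-likelihood test, Benjamini-Hochberg adjusted p under 0.05). In unpulsed cells it was again 6 of 6, against 24.5% called higher and 21.9% called lower. Every EKO library lay above every CtrV library of the same pulsing state for each of the 6 genes, which was so for 27% of tested genes in OVA-pulsed cells and for 24.1% in unpulsed cells. The median log2 fold change of the 6 genes was 1.84 with OVA and 1.94 without, where the median of all tested genes was 0.00064 and 0.00013. The scaling of the libraries largely places the median of all genes near 0, so it is not an independent comparison. In RNA from whole cultures, more cells with a transcript and more transcript per cell cannot be told apart.

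**Figure D1:**
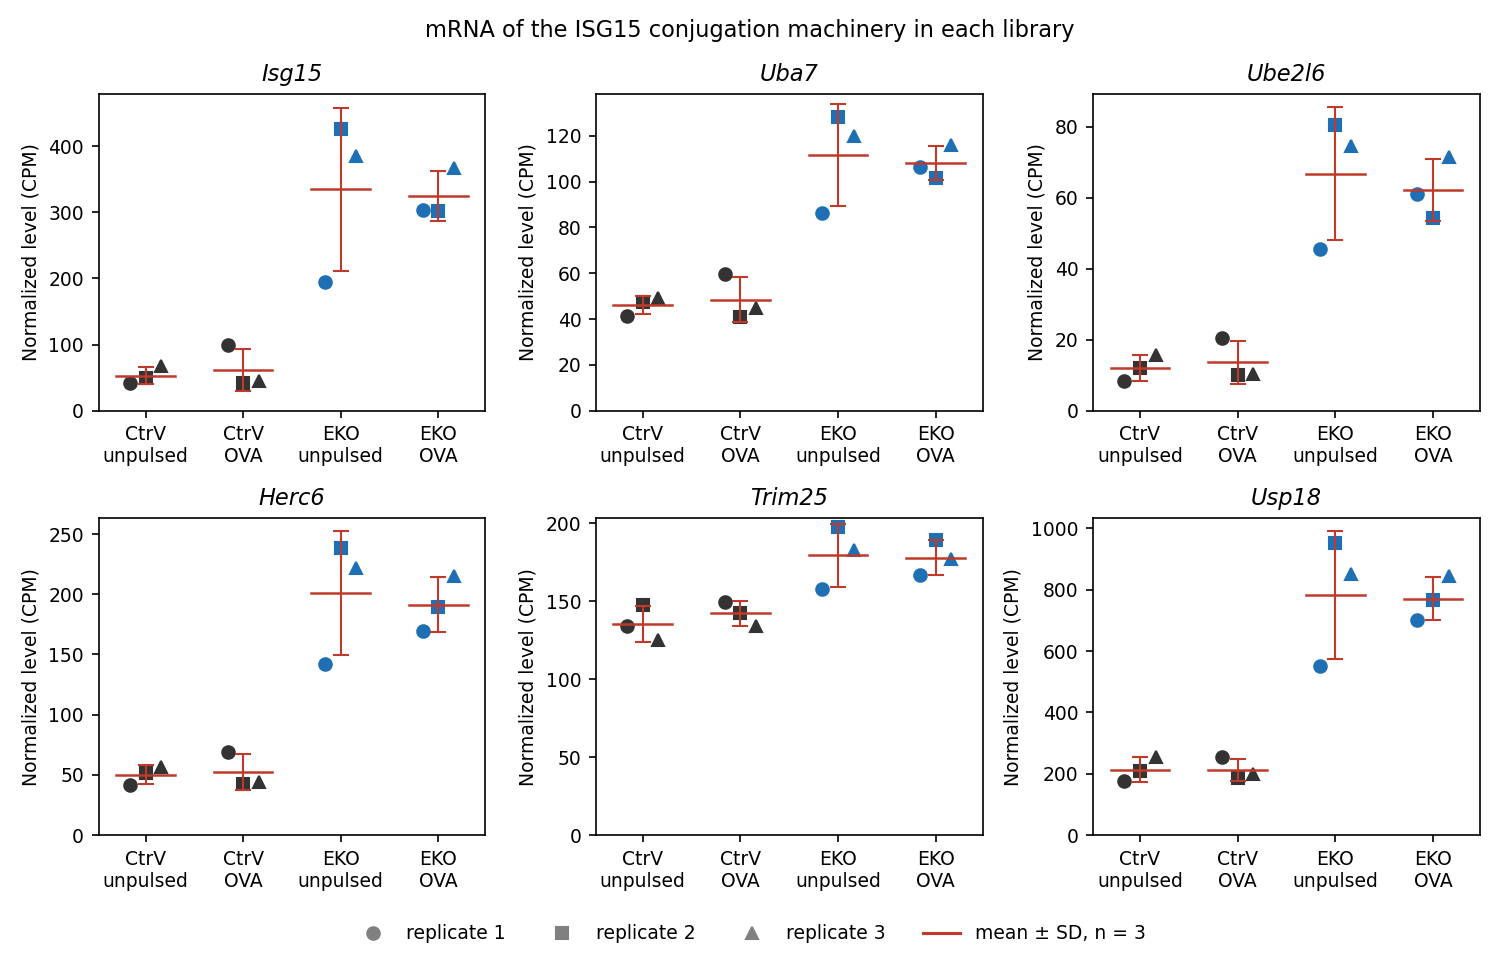
Normalized level (CPM, linear axis from 0) of the 6 genes in each of the 12 libraries, with symbols for the replicate number, black for CtrV, blue for EKO and red bars for the mean ± SD of 3 libraries. In every panel the EKO points lie above the CtrV points of the same pulsing state, and the gap is narrowest for Trim25.

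Isg15 (ENSMUSG00000035692), the modifier, lies on the minus strand of chromosome 4 at chr4:156199424-156200818 in GRCm38. In unpulsed CtrV cells it had 42.3, 49.2 and 67.0 CPM in replicates 1, 2 and 3, and in OVA-pulsed CtrV cells 98.6, 41.4 and 44.7 CPM. In EKO cells it had 194.9, 425.6 and 385.2 CPM unpulsed and 304.0, 301.5 and 367.8 CPM with OVA. The highest CtrV library was replicate 1 with OVA and the lowest EKO library was replicate 1 without OVA, and these still did not overlap. The log2 fold change was 2.38 ± 0.37 (SE), or 5.20-fold, with OVA (adjusted p = 0.00041). Without OVA it was 2.67 ± 0.38, or 6.38-fold (adjusted p = 0.00021). By log2 fold change Isg15 stood at place 164 with OVA and 113 without among the 14079 tested genes. Without OVA-pulsed CtrV replicate 1, the log2 fold change with OVA was 3.10 (adjusted p = 3e-06). With other single libraries left out it went down to 2.07, with adjusted p up to 0.0036. A similar gene, AC151275.1, shares 482 bases with Isg15 at 95.2% identity, so reads could be split between them. Its own log2 fold changes were 2.51 and 2.77.

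The region around the Isg15 start site is shown because 3 matches to the core of the interferon-stimulated response element (ISRE; GAAA, 2 bases of any kind, and GAAA again) lie in it. The window runs from 250 bases before to 50 bases after the start in RefSeq on GRCm38.p6, at chr4:156200769-156201068 on the minus strand, and is read 5′ to 3′ along the gene. Capitals mark matches to the ISRE core or to the shorter IRF core (AANNGAAA), searched on both strands.
Isg15: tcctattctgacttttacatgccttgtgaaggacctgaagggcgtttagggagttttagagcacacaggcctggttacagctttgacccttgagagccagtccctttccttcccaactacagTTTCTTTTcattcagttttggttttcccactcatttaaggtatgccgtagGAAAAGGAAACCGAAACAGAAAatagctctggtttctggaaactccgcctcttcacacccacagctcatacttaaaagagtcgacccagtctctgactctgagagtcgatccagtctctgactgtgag
The 3 ISRE core matches began at -78, -72 and -66 from the start and overlapped each other. Each held an IRF core match by definition, because the letters of the ISRE core contain those of the IRF core. A further IRF core match on the opposite strand began at -128. Of 32851 mouse promoter windows of this length, 3.44% held the ISRE core and 23.9% held the IRF core. These are matches of letters only.

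Uba7 (ENSMUSG00000032596, chr9:107975505-107984060, plus strand) encodes the E1 that activates ISG15. It had 41.5, 47.3 and 49.2 CPM in unpulsed CtrV cells and 59.5, 41.1 and 44.7 CPM in OVA-pulsed CtrV cells. In EKO cells the values were 86.2, 128.3 and 119.8 CPM unpulsed and 106.4, 101.5 and 116.2 CPM with OVA. Every EKO library was above every CtrV library. The log2 fold change was 1.15 ± 0.16, or 2.22-fold, with OVA (adjusted p = 2e-04) and 1.28 ± 0.16, or 2.42-fold, without (adjusted p = 0.00011). Of its exon bases, 3.48% are shared with Gm20661 on the same strand.

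Ube2l6 (ENSMUSG00000027078, chr2:84798828-84810335, plus strand) encodes the E2 that takes over ISG15 from Uba7. It had 8.46, 12.0 and 15.6 CPM in unpulsed CtrV cells and 20.6, 9.94 and 10.3 CPM in OVA-pulsed CtrV cells. EKO libraries had 45.5, 80.4 and 74.5 CPM unpulsed and 61.0, 54.3 and 71.5 CPM with OVA. Here too the lines did not overlap, although OVA-pulsed replicate 1 stood well above the other CtrV libraries. The log2 fold change was 2.16 ± 0.31, or 4.47-fold, with OVA (adjusted p = 0.00022) and 2.48 ± 0.32, or 5.58-fold, without (adjusted p = 0.00011). Without OVA-pulsed CtrV replicate 1 the value with OVA was 2.78 (adjusted p = 3.7e-06). With other single libraries left out it went down to 1.885, with adjusted p up to 0.0022. Stretches of Ube2l6 exons resemble 13 other genes, the longest being 508 bases of Gm17167 at 95.1% identity, so reads there could be split.

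Herc6 (ENSMUSG00000029798, chr6:57581000-57664632, plus strand) encodes the main ISG15 ligase of mice. It had 41.6, 51.8 and 56.9 CPM in unpulsed CtrV cells and 69.4, 42.6 and 44.5 CPM in OVA-pulsed CtrV cells. The EKO libraries had 142.4, 238.7 and 222.1 CPM unpulsed and 169.4, 189.5 and 215.3 CPM with OVA. All EKO libraries were above all CtrV libraries. The log2 fold change was 1.85 ± 0.23, or 3.61-fold, with OVA (adjusted p = 7.2e-05) and 2.00 ± 0.23, or 4.00-fold, without (adjusted p = 4.6e-05). Herc6 shares 13.7% of its exon bases with Gm45193 on the same strand, so counts at the shared bases cannot be assigned to either gene.

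Trim25 (ENSMUSG00000000275, chr11:88999376-89020293, plus strand) encodes a ligase for ubiquitin and ISG15 that is also known as a partner of the RNA sensor RIG-I. It had 134.1, 147.2 and 124.8 CPM in unpulsed CtrV cells and 149.7, 142.6 and 133.9 CPM in OVA-pulsed CtrV cells. The EKO libraries were at 157.7, 197.6 and 182.7 CPM unpulsed and 167.0, 189.3 and 176.8 CPM with OVA. The lines did not overlap, but the lowest EKO library was close to the highest CtrV library. The log2 fold change was 0.32 ± 0.07, or 1.25-fold, with OVA (adjusted p = 0.0048) and 0.41 ± 0.07, or 1.32-fold, without (adjusted p = 0.0012). At place 2673 with OVA it stood far below the other 5 genes, of which the lowest, Uba7, was at 676.

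Usp18 (ENSMUSG00000030107, chr6:121245906-121270917, plus strand) encodes the protease that removes ISG15 and, separately, an inhibitor of signalling at the type I interferon receptor. It had 176.0, 208.8 and 256.1 CPM in unpulsed CtrV cells and 254.5, 185.8 and 200.8 CPM in OVA-pulsed CtrV cells. In EKO cells it had 550.2, 951.1 and 850.5 CPM unpulsed and 702.7, 765.3 and 844.7 CPM with OVA. No CtrV library reached the lowest EKO library. The log2 fold change was 1.83 ± 0.19, or 3.56-fold, with OVA (adjusted p = 2.2e-05) and 1.87 ± 0.19, or 3.66-fold, without (adjusted p = 2e-05). Of its exon bases, 4.44% overlap Gm44148 on the other strand, which had 0 to 5 counts.

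The promoter windows of Uba7 and Trim25 are shown beside that of Isg15 because each held 1 IRF core match, in capitals, on the opposite strand. They began at -27 in Uba7 (chr9:107975317-107975616, plus strand) and at -4 in Trim25 (chr11:88999153-88999452, plus strand).
Uba7: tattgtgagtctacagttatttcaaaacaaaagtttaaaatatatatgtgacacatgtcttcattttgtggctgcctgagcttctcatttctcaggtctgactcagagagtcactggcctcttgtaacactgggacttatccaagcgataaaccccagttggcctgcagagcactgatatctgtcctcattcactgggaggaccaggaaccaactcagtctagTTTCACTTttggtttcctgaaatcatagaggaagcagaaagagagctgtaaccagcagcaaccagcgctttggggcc
Trim25: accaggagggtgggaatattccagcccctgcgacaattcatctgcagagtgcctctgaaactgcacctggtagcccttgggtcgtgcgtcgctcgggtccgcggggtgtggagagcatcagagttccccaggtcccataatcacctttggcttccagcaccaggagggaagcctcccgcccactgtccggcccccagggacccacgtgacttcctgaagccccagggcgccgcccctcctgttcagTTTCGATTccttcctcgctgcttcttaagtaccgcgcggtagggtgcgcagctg
The windows of Ube2l6 and Herc6 held neither core. The gamma-activated site (GAS, TTCNNNGAA) had no match in the 5 windows, and 8.3% of all windows held it. Of the 6 genes, 5 matched the promoter table; Usp18 did not.

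**Figure D2:**
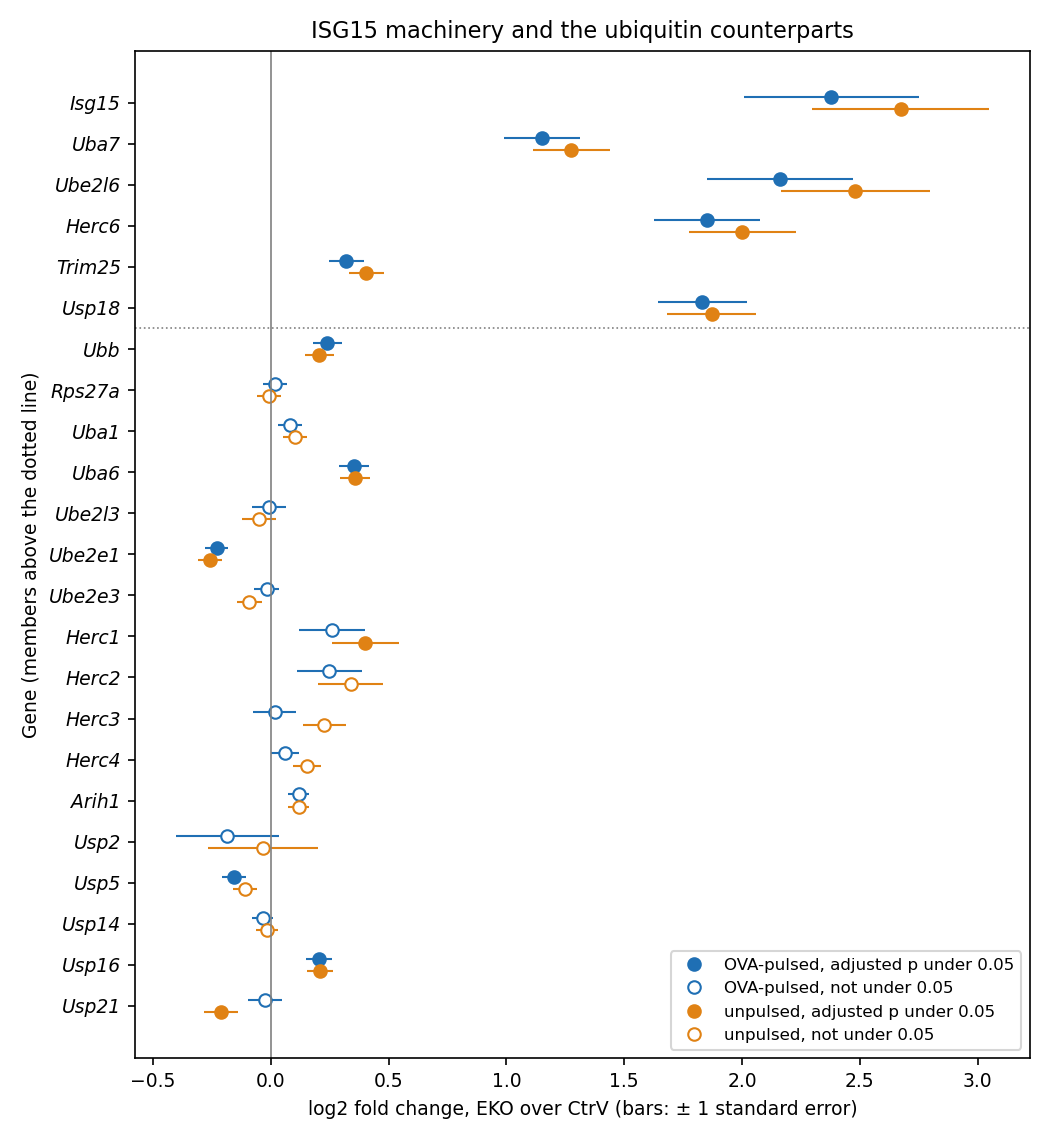
log2 fold change of EKO over CtrV (horizontal axis) with bars of 1 standard error, for the 6 genes above the dotted line and 17 ubiquitin counterparts below it; filled points have an adjusted p under 0.05. Isg15, Ube2l6, Herc6, Usp18 and Uba7 lie above 1 in both pulsing states, and the highest counterpart is Herc1 at 0.40 without OVA.

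The ubiquitin counterparts differed less between the lines than the 6 genes other than Trim25, whose difference was close to the largest of theirs. Of 19 ubiquitin counterparts, 17 were tested, and with OVA 3 were higher, 2 were lower and 12 were not called, beside the 25.1% and 21.9% of all tested genes. The polyubiquitin gene Ubb had a log2 fold change of 0.24 and Uba6, an alternative ubiquitin E1, had 0.35 (both called). Uba1, the main ubiquitin E1, was at 0.08 and Ube2l3, the closest relative of Ube2l6, at -0.01, neither called. The Herc6 relatives Herc1, Herc2, Herc3 and Herc4 had 0.26, 0.25, 0.02 and 0.06, none called with OVA. Without OVA, 4 were higher, 2 lower and 11 not called, with Herc1 called at 0.40. The median log2 fold change of the counterparts was 0.02 with OVA and 0.10 without. Without the replicate as a block, 2 were higher and 1 lower with OVA, and 1 higher and 1 lower without.

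Other ubiquitin-like modifiers and their enzymes were counted in the same way. Of 20 tested genes, 6 were higher, 3 lower and 11 not called in both pulsing states, shares near those of all tested genes with OVA (25.1% and 21.9%). Without the replicate block 5 were higher with OVA and 4 without. The largest rise was that of Ufm1, a ubiquitin-like modifier with its own cascade, with log2 fold changes of 0.99 and 0.94, and the next largest rise was that of Ube2f, the E2 for NEDD8, at 0.38 and 0.45. Sae1 and Uba2, the subunits of the SUMO E1, were lower at -0.47 and -0.29 with OVA. The list's median was 0.04 with OVA and 0.0044 without.

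Per base of exon, the order of the 6 genes differed between the lines. In CtrV cells Isg15 and Usp18 led with 69.9 and 76.6 CPM per kb unpulsed, and their ranges overlapped. Trim25 followed at 23.5 CPM per kb, ahead of Uba7, Ube2l6 and Herc6 at 6.87, 6.02 and 5.39 CPM per kb. The range of Ube2l6 overlapped with both of these neighbours. In unpulsed EKO cells Isg15 led with 443 CPM per kb, ahead of Usp18 at 281 CPM per kb, with overlapping ranges. Ube2l6 at 33.5 CPM per kb and Trim25 at 31.2 CPM per kb had overlapping ranges too. Herc6 at 21.6 and Uba7 at 16.7 CPM per kb came last and overlapped with each other. With OVA, the EKO ranges of Isg15 and Usp18 were apart, at 429 and 276 CPM per kb. Ube2l6 thus stood beside Herc6 and Uba7 in CtrV cells and beside Trim25 in EKO cells. Exon lengths came from GENCODE M21 and not from the gene model used for counting. They cover the exons of all transcripts of a gene, 15 for Uba7 and 1 for Isg15. The order between genes within a group therefore also depends on the annotation.

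**Figure D3:**
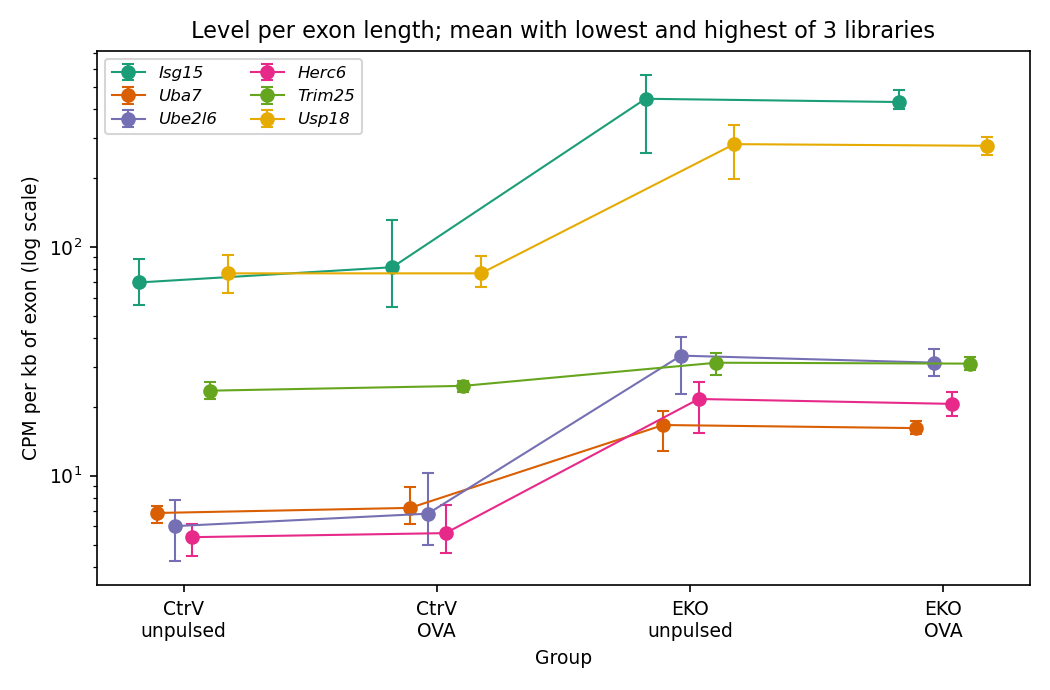
Level per exon length (CPM per kb, log axis) of the 6 genes in the 4 groups; points are means of 3 libraries, bars run from the lowest to the highest library, and lines join the means of 1 gene. Isg15 and Usp18 stand above the others in every group, and Trim25 is the flattest line.

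The enzymes were also set against Isg15 within each library. The ratio of Usp18 to Isg15 (CPM over CPM, geometric mean) was 3.73 in CtrV and 2.38 in EKO cells with OVA and 4.07 and 2.41 without. For Trim25 it was 2.502 and 0.549 with OVA, and for Uba7 0.842 and 0.334. Herc6 was at 0.896 and 0.590, and Ube2l6 at 0.226 and 0.191, the smallest difference of the 5. For 9 of the 10 ratios every EKO library was below every CtrV library, giving p = 0.1 in the exact two-sided permutation test, the smallest that 3 against 3 allows. The exception was Ube2l6 without OVA, with log2 ratios -0.14 apart, overlapping groups and an exact permutation p = 0.2. Adjusted over the 10 ratios these were 0.111 and 0.2. With 3 against 3 libraries none could have passed 0.05, so the test decides nothing here. Isg15 had a larger log2 fold change (2.38 with OVA, 2.67 without) than any of the 5 enzymes. Lower mean ratios in EKO cells follow from that. By log2 fold change Isg15 stood at places 164 and 113 of 14079 tested genes, so most genes would fall against it. The share of all genes with such ratios was not computed. The direction of the ratios is therefore not specific to these enzymes, and the count of 9 of 10 is not a result about them.

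Pulsing with OVA had no called effect on any of the 6 genes. In CtrV cells the log2 fold changes, pulsed over unpulsed, ran from 0.03 (Usp18) to 0.24 (Isg15), and in EKO cells from -0.10 (Ube2l6) to -0.01. For Isg15 they were 0.24 ± 0.37 and -0.05 ± 0.35 (SE), so a change of this size or somewhat larger was not detectable. No gene of the table was called higher or lower with pulsing in either line (0% each), with 231 genes at an unadjusted p under 0.05 in CtrV cells and 394 in EKO cells by edgeR, and DESeq2 called 0 as well. The dependence of the line difference on pulsing ran from -0.32 to -0.04 on the log2 scale over the 6 genes, with none called, 0% of all genes called in either direction and 269 genes at an unadjusted p under 0.05.

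**Figure D4:**
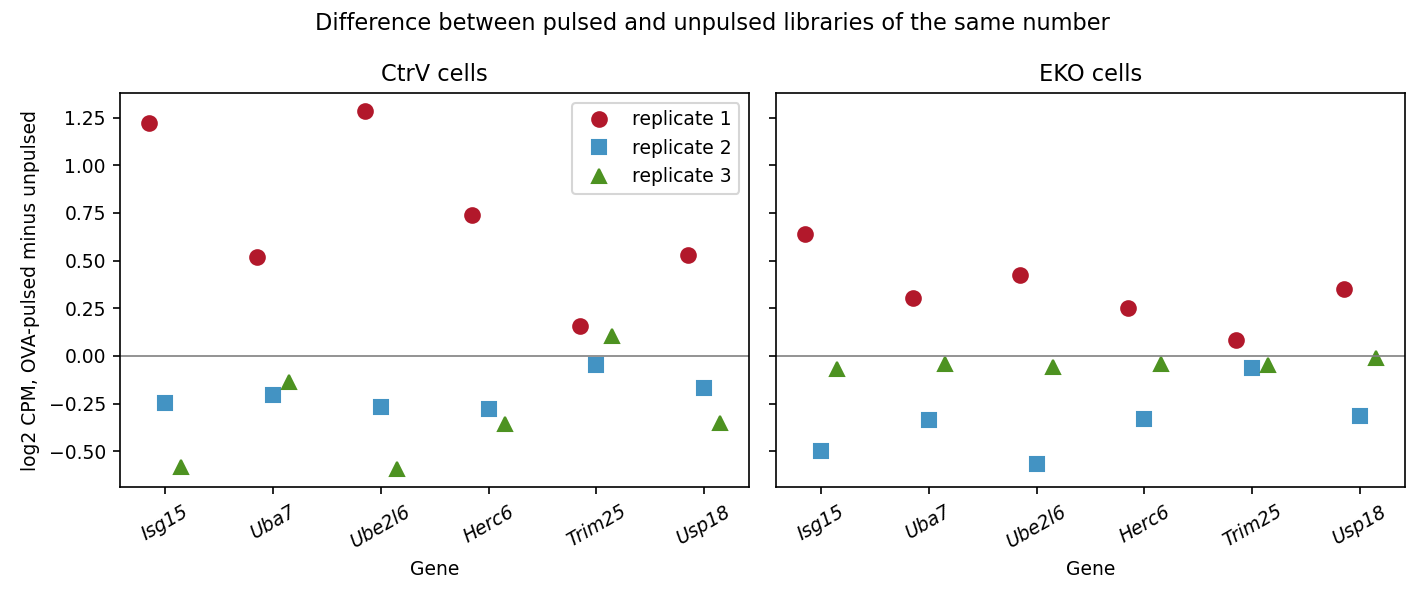
log2 CPM of the OVA-pulsed library minus that of the unpulsed library with the same replicate number, for each gene in CtrV cells (left) and EKO cells (right). Replicate 1 lies above 0 for all 6 genes in both lines, and replicates 2 and 3 lie below 0, except Trim25 in replicate 3 of CtrV cells.

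The replicates did not move the same way with pulsing. In CtrV cells Isg15 was 2.33 times as high with OVA in replicate 1, but 0.842 and 0.667 times in replicates 2 and 3. In EKO cells it was 1.56, 0.708 and 0.955 times as high. The other genes had the same signs, except Trim25 in CtrV replicate 3 at 1.07 times. Leaving out OVA-pulsed CtrV replicate 1 turned the sign of the CtrV pulsing value of all 6 genes (Isg15 to -0.45) and of their dependence on pulsing (Isg15 to 0.46). Leaving out unpulsed EKO replicate 2 turned the EKO pulsing value of all 6 (Isg15 to 0.30), and other single libraries turned it for some genes only.

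The genes differed in how far they ranged. Over the 12 libraries Isg15 spanned 3.36 on the log2 scale, Ube2l6 3.24, Herc6 2.52, Usp18 2.43, Uba7 1.64 and Trim25 0.66. The highest library was unpulsed EKO replicate 2 for all 6. The root mean square distance between centred log2 profiles was smallest for Herc6 and Usp18 (0.0895), next for Isg15 and Ube2l6 (0.147), and largest for Isg15 and Trim25 (1.16). Among 12387 other genes, the profiles nearest to the mean of the 6 were those of Dhx58 (0.0588), the unnamed ENSMUSG00000118632 (0.0607), Gm45193 (0.0989), Trex1 (0.1001) and Xaf1 (0.106). Gm45193 shares exon bases with Herc6 and is not an independent profile. These distances run over all 12 libraries, so they hold the difference between the lines and do not measure variation between replicates, and they were computed with no test. Within groups Trim25 could run against the others, as in unpulsed CtrV replicate 3, where Trim25 was lowest of its group and Isg15 and Usp18 were highest.

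Genes of interferon input and response were read beside the machinery. Ifnb1, which encodes interferon beta, had 4, 6 and 9 counts in unpulsed CtrV libraries and 7, 4 and 4 with OVA. In EKO libraries it had 23, 205 and 113 counts unpulsed and 87, 112 and 94 with OVA. The lowest EKO library was thus unpulsed replicate 1, which was also the lowest EKO library of all 6 genes. Ifnb1 passed the filter on low counts only through EKO libraries, so its difference is given by these counts alone and its call supports nothing. Irf7, an interferon-inducible regulator of interferon genes, had 2.28 and 2.53, and Stat2 and Irf9, which carry the interferon signal to the nucleus, had 0.93 and 0.77 with OVA. The receptor chain Ifnar2 was lower at -0.31 and Skp2, a ubiquitin ligase subunit, at -0.61. Of the 11 genes of this list, 6 were higher, Ifnb1 included, 2 lower and 3 not called in both pulsing states. Beside this, 25.1% of all tested genes with OVA and 24.5% without were called higher, and 21.9% lower in each state. The list's median, Ifnb1 included, was 0.24 with OVA and 0.27 without. Without the replicate block 5 were higher in each state.

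Of the 16 proteins known to carry ISG15, 5 were higher, 0 lower and 11 not called at the mRNA level with OVA, where 25.1% of all tested genes were higher. Those that moved most were the RNA sensors Ifih1 (MDA5) and Ddx58 (RIG-I), with log2 fold changes of 1.47 and 1.31. Without OVA 5 were higher, 1 lower (Pcna at -0.20) and 10 not called, or 4 higher and 1 lower without the replicate block. The median was 0.12 and 0.07. In the list for the RIG-I arm that Trim25 feeds, 6 of 8 genes were higher, 1 was lower and 1 was not called in both states. This list also holds Ifih1, which is a sensor other than RIG-I. Ifih1 and Ddx58 are in both lists, so these counts are not independent. Beside both lists, 25.1% of all tested genes with OVA and 24.5% without were called higher, and 21.9% lower in each state. Ikbke, a kinase that activates interferon regulatory factors, had the largest value at 3.51, while the adaptor Mavs was at -0.20.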

How the data were processed

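RNA from 12 libraries made with a stranded mRNA kit was sequenced, and the authors deposited 1 table of unnormalized gene counts. Their notes and methods name STAR for alignment to mm10, with 1 location kept for reads of several possible origins, and featureCounts for counting over exons; whether strand was used is not given in the sources used here. Overlapping and similar genes can therefore share reads. Symbols, positions and exon lengths came from GENCODE M21 on GRCm38, which may differ from the gene model counted on.

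The filter kept genes whose log2 CPM exceeded 0 in 2 or more libraries (14079 of 55401). In edgeR 4.0.16 (R 4.3.3), TMM factors and a quasi-likelihood model of all libraries were used, with terms for group and replicate number. P-values were adjusted by Benjamini-Hochberg across the tested genes and called under 0.05. CPM values use the factors of that model, and a standard error is the log2 fold change over the square root of F. The replicate term follows the study's methods. Same-numbered libraries of the lines had correlated deviations of 0.448, 0.292 and 0.289 with OVA, and 0.060, -0.012 and 0.263 without. For pulsed and unpulsed libraries these were 0.706, 0.351 and 0.411 in EKO and 0.077, 0.179 and 0.373 in CtrV cells. Similar sequences were searched with blastn 2.17.0. Ratios to Isg15 were compared by exact permutation tests in SciPy 1.17.1. The model was tested on simulated counts.

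The 6 genes, the gene lists and the rule for named genes (the 6, their ubiquitin counterparts, the extreme called genes of each list and the 5 nearest profiles) were chosen with earlier results of these data known. Some listed genes are not reported here, and the list counts leave them out. The alternatives changed the tool (DESeq2 1.42.0 or voom of limma 3.58.1), the scaling (RLE or upper quartile), the filter (none, or 10 counts in each library), the block (none), the threshold (0.01, or a log2 limit of 1) and the libraries (the compared ones alone, or some left out). Leaving out all 4 replicate 1 libraries and adding the counts of overlapping or similar genes were chosen after seeing the data.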

Additional observations from a re-analysis of the deposited data

How the results depend on the processing

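All 6 genes stayed called higher in EKO cells under every alternative tried in both pulsing states, except the log2 limit of 1. There 5 stayed, without Trim25. With OVA, log2 fold changes ran from 2.07 to 3.10 for Isg15 and from 0.25 to 0.41 for Trim25. The call of Trim25 with OVA came closest to the threshold, with an adjusted p of up to 0.046 with 1 library left out. Without the replicate block, Isg15 was at 2.395 with OVA and 2.67 without, and no call on the 6 genes changed. The number of genes called with OVA went from 6619 to 1268 with the limit, and without OVA from 6537 to 1241. With all 4 replicate 1 libraries left out, 5 genes were called for the dependence on pulsing and 4 for pulsing in EKO cells.

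Values of the pulsing comparisons, none called, changed sign under some settings, and the cause was not tested. With limma voom the dependence on pulsing of Usp18 was 0.0063, and pulsing in EKO cells gave 0.027 for Isg15 and 0.011 for Usp18. With the compared libraries alone it gave 0.019 for Isg15 and 0.0059 for Usp18. With all 4 replicate 1 libraries left out, the dependence on pulsing was 0.14 for Isg15, 0.13 for Ube2l6, 0.13 for Herc6 and 0.10 for Usp18, and pulsing in CtrV cells gave -0.42 for Isg15, -0.17 for Uba7, -0.44 for Ube2l6, -0.32 for Herc6 and -0.26 for Usp18. With single libraries left out, the dependence on pulsing ran from -0.60 to 0.46 for Isg15, -0.30 to 0.15 for Uba7, -0.60 to 0.30 for Ube2l6, -0.34 to 0.29 for Herc6, -0.17 to 0.0039 for Trim25 and -0.22 to 0.28 for Usp18. Pulsing in CtrV cells ran from -0.45 to 0.56 for Isg15, -0.18 to 0.22 for Uba7, -0.37 to 0.50 for Ube2l6, -0.34 to 0.28 for Herc6, -0.014 to 0.13 for Trim25 and -0.27 to 0.17 for Usp18. Pulsing in EKO cells ran from -0.41 to 0.30 for Isg15, -0.23 to 0.12 for Uba7, -0.38 to 0.17 for Ube2l6, -0.28 to 0.12 for Herc6, -0.094 to 0.039 for Trim25 and -0.21 to 0.20 for Usp18.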
